A study of Mus musculus with 2 samples.

Results

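The genes of the transcriptional coactivators YAP and TAZ, of the 4 TEAD factors and of 4 target genes were examined by global run-on sequencing (GRO-seq) in C2C12 myoblasts, an established line of mouse muscle precursor cells that can fuse into muscle fibres. Members were the rows of the deposited table of gene activity whose symbol is Yap1, Wwtr1, Tead1, Tead2, Tead3, Tead4, Ctgf, Cyr61, Ankrd1 or Amotl2. All 10 symbols were found, with 14 of the 24165 RefSeq entries in the table (20128 gene symbols). In GRO-seq, nuclei are isolated and engaged RNA polymerase II (Pol II) runs on in the presence of bromouridine, so that a read marks a polymerase in the act of transcription. The only group was the untreated cell line, grown to 80% confluency in serum, with 4 plates for each isolation of nuclei. It was sequenced as 2 replicate libraries. The authors pooled both and gave each entry a single value, so the table holds neither the spread between replicates nor the depth of each library, no condition can be compared, and every level below is a description without a test.

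YAP (gene Yap1) and TAZ (gene Wwtr1) are paralogous coactivators that bind no DNA by themselves and reach it through TEAD1 to TEAD4, factors that recognise the M-CAT motif CATTCC. In the Hippo pathway the MST kinases (Stk3, Stk4) activate the LATS kinases (Lats1, Lats2), which phosphorylate YAP and TAZ and keep them out of the nucleus, above all in dense cultures or on soft substrates. CTGF and CYR61, secreted matricellular proteins of the CCN family, ANKRD1, a muscle ankyrin repeat protein, and AMOTL2, an angiomotin that binds YAP, are the products of genes widely used as readouts of this pathway. In muscle, M-CAT motifs are known from promoters of contractile protein genes.

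Promoter windows of the RefSeq table, from 250 bases before to 50 after each gene start (build GRCm38.p6), were matched for 7 of the 10 genes, with Cyr61 under its present symbol Ccn1. No window was matched for Tead1, Tead4 and Ctgf (present symbol Ccn2), although they have RefSeq entries with a gene activity. The motif CATTCC, read on both strands, was found in a window of 6 of the 7 genes and in 8 of their 10 windows, which overlap for Wwtr1 and Tead3. Over the whole table, 14.7% of 32851 windows and 16.6% of 27025 genes hold it. The upstream bases of the 3 matched target genes and of Yap1 are shown because they carry the motif to which TEAD factors bind, here in capitals as CATTCC or, on the other strand, GGAATG. All are written 5′ to 3′ in the direction of transcription. They lie on the minus strand at chr19:36119845-36120094 (Ankrd1), chr3:145649986-145650235 (Cyr61) and chr9:8004597-8004846 (Yap1), and on the plus strand at chr9:102717554-102717803 (Amotl2).
Ankrd1: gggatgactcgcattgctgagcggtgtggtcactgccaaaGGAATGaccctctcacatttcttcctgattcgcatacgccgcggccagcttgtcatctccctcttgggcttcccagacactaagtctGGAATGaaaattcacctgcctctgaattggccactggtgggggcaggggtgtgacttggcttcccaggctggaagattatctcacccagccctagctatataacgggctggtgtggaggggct
Cyr61: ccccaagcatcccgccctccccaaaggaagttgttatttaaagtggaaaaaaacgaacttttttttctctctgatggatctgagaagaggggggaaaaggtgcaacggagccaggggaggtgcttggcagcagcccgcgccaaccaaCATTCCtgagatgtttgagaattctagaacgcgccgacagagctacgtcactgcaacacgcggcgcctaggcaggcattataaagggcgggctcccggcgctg
Amotl2: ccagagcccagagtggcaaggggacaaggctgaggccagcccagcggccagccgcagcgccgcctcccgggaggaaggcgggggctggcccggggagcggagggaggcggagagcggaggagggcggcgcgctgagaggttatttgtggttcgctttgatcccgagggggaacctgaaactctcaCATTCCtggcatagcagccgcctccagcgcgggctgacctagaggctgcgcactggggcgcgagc
Yap1: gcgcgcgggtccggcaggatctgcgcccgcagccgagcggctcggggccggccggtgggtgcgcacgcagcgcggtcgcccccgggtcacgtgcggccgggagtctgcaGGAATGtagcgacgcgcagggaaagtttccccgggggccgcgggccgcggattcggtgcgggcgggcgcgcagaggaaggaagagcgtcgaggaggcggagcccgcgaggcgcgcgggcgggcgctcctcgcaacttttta

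In Ankrd1 the motif occurred at 210 and 123 bases before the start, both on the minus strand relative to transcription. Cyr61 had it at 103 bases, Amotl2 at 65 and Yap1 at 141. In each of these 3 genes an A precedes the motif on its own strand, giving ACATTCC, which occurs in 3.85% of all windows. Wwtr1 had a single motif at 136 bases before its upstream start. Tead3 had motifs in 2 of its 3 windows, of which one held ACATTCC. Thus 4 of the 7 genes had the longer motif, against 4.47% of all 27025 genes. Tead2 had none. The exact TATA box string TATAAA, read on both strands, was found at 25 bases before the start of Cyr61. It was in no other member window and in 13.6% of all windows. Other forms of the TATA box were not searched, and the bases shown for Ankrd1 hold TATATAA close to the start. The AP-1 motif TGACTCA, searched on both strands, was in no member window and in 5.20% of all windows. These motifs do not overlap each other except that ACATTCC contains CATTCC, and a match is a description of letters and not of binding. The windows of Yap1 (74.0% G and C, 49 CpG) and Amotl2 (68.7%, 26 CpG) were richer in G and C than that of Ankrd1 (54.7%, 7 CpG), which was close to the median window of the table (52.7%, 7 CpG). The remaining member windows lay between these or above, from 57.0% in Cyr61 (20 CpG) to 75.3% in a window of Tead3 (34 CpG).

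All 10 genes, and all 14 entries, were listed as active, that is, their read density on the sense strand of the gene body passed the authors' test against the density in gene deserts. Among all gene symbols 68.7% had an active entry, and among all entries 70.2% were active. Gene activity is given in RPKmM, read density per kilobase of mappable bases scaled to the number of reads, from 1 kb after the transcription start site (TSS) to the transcript end site (TES), so that levels are per length and may be set beside each other. The activities spanned 49.2-fold, from 0.78 RPKmM for Tead2 to 38.34 for Ankrd1. Their median was 2.80, against 0.86 over the 13822 active genes, with quartiles of 0.21 and 1.96. An activity of at least 1 was reached by 9 of the 10 genes (31.4% of all symbols) and 13 of the 14 entries (32.3% of all entries). An activity of at least 10 was reached by 3 genes with 1 entry each (1.94% of all symbols, 2.03% of all entries).

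**Figure D1:**
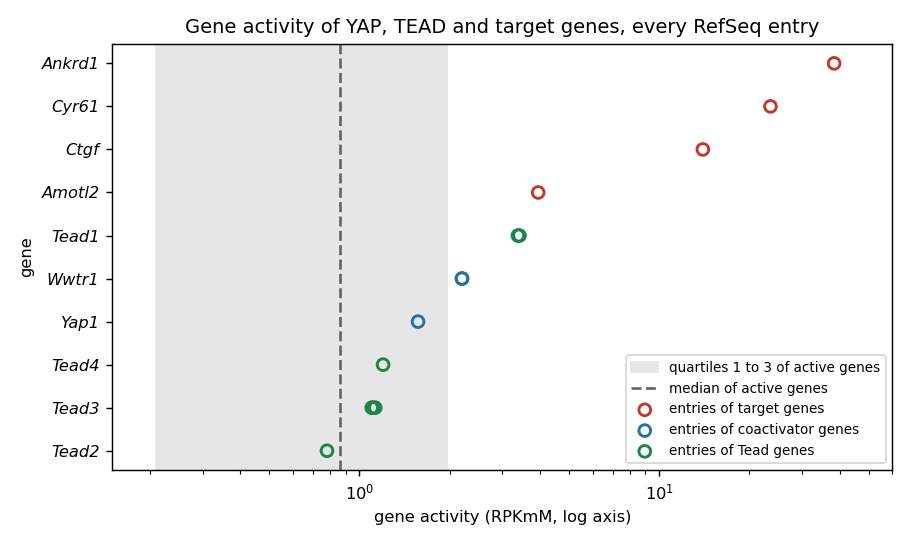
Gene activity (RPKmM, log axis) of every RefSeq entry of the 10 genes, by gene; each circle is an entry of the pooled libraries, the dashed line is the median of all active genes (0.86) and the grey band their quartiles (0.21 to 1.96). The 4 target genes lie at 3.95 or above, the 6 genes of coactivators and TEAD factors at 3.42 or below, and entries of a gene nearly coincide.

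The target genes were the 4 most active members. Ankrd1 (NM_013468) had an activity of 38.34 RPKmM, and 74 of the 13822 active genes were higher. Cyr61 (NM_010516) had 23.51, with 139 genes above it, and Ctgf (NM_010217) had 13.99, with 251 above it. These genes stood at 44.6, 27.3 and 16.3 times the median active gene, so that all of them were among the upper 2% of active genes. Amotl2 (NM_019764) was lower, at 3.95, which was above 89.7% of active genes and 4.59 times their median. Within the targets, the step from Ctgf to Amotl2 was 3.54-fold, whereas Ankrd1 exceeded Cyr61 by 1.63-fold and Cyr61 exceeded Ctgf by 1.68-fold.

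The coactivator genes were less active than any of these targets. Wwtr1, which encodes TAZ, had the same activity of 2.2 RPKmM in both entries (NM_133784 and NM_001168281), above 77.9% of active genes. Yap1 (NM_001171147) had 1.57, above 68.1%. Wwtr1 thus exceeded its paralogue 1.40-fold, and without values per library it is not known whether that difference is larger than the replicate error.

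Among the TEAD genes, Tead1 was the most active. Its entries had 3.42 (NM_001166584) and 3.38 RPKmM (NM_001166585), a mean of 3.40, above 87.2% of active genes. Tead4 (NM_001080979) had 1.2, the 3 entries of Tead3 had 1.13 (NM_001204156), 1.11 (NM_001098226) and 1.1 (NM_011566), and Tead2 (NM_001285498) had 0.78. Tead1 exceeded Tead4 2.83-fold, Tead3 3.05-fold and Tead2 4.36-fold, and it made up 52.4% of the summed activity of the 4 genes. Tead4 and Tead3 differed by 1.08-fold only, and Tead3 exceeded Tead2 by 1.43-fold. Tead2 was the only member below the median of active genes, at the rank of 47.4%. It was also the only one of the 4 Tead genes that did not reach 1 RPKmM.

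**Figure D2:**
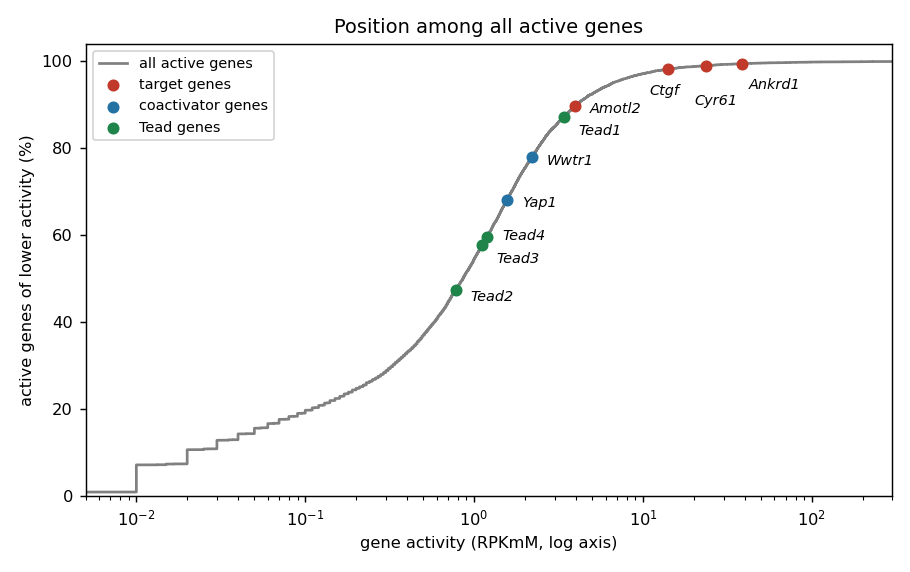
Percentage of active genes with a lower activity (vertical axis) against gene activity (RPKmM, log axis) for all 13822 active genes (grey line), with the 10 members as points coloured by role. Ankrd1, Cyr61 and Ctgf lie on the upper end, at 98.2% or above, and the Tead genes spread from 47.4% to 87.2%.

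The median of the 4 targets was 18.8 RPKmM and that of the 6 genes of coactivators and TEAD factors 1.39, a ratio of 13.5. The lowest target, Amotl2, exceeded the highest of these regulators, Tead1, by 1.16-fold only. Thus the ranges of both roles did not overlap in activity, but their edges were close, and among genes of similar length the order turned, with Tead1 above 94.2% and Amotl2 above 88.1% of such genes. Of the 6 regulator genes, 4 lay between the quartiles of active genes. In the order of the 10 levels, the smallest steps were from Tead4 to Tead3 (1.08-fold) and from Amotl2 to Tead1 (1.16-fold), and the largest from Ctgf to Amotl2. No step has a replicate check. The several entries of a gene differed by at most 1.03-fold in Tead3 and 1.01-fold in Tead1, but they overlap along the gene and share reads, so they measure no error. Over the 2273 genes with several active entries above 0, the ratio of the highest to the lowest entry had a median of 1.10.

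In the mm9 annotation (GENCODE vM1, NCBIM37), the 10 genes lie on 7 chromosomes. Tead1 is the longest, at chr7:119822832-120050319 on the plus strand (227 kb), followed by Wwtr1 at chr3:57259571-57379832 on the minus strand (120 kb). Tead4 (chr6:128174306-128250841) and Yap1 (chr9:7931999-8004596) are minus-strand genes of 76.5 and 72.6 kb. Tead3 (chr17:28468616-28487750, minus), Tead2 (chr7:52471123-52489005, plus) and Amotl2 (chr9:102619002-102635748, plus) have lengths from 16.7 to 19.1 kb. Ankrd1 (chr19:36186455-36194334, minus) has 7.88 kb and 9 exons. Ctgf (chr10:24315248-24318489, plus) and Cyr61 (chr3:145309935-145312949, minus) have 5 exons each and are the shortest. Their activities therefore rest on gene bodies of only 2.24 and 2.02 kb, against 226 kb for Tead1. No other annotated gene overlaps a member on the same strand. On the opposite strand 5 members overlap a gene, whose reads the authors' counting by strand leaves out. The nearest gene upstream on the same strand was within 1 kb for Tead3 only, and this gene, Tulp1, was listed as inactive.

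The 3 most active members were also the 3 shortest. Across the 10 members, the rank correlation of activity with gene length was −0.55, while it was −0.04 across 12302 active genes that have a length in the annotation. Both are given without a p-value, as genes are not replicates. Activities of at least 10 RPKmM were found for 86 of 1193 active genes from 2 to 5 kb (7.21%) and 154 of 4203 from 5 to 20 kb (3.66%). They were less frequent among longer genes, with 109 of 5262 from 20 to 100 kb (2.07%) and 6 of 1644 above 100 kb (0.365%). Members were therefore also ranked among active genes of similar length, from 0.5 to 2 times their own. Cyr61 then stood above 96.7% (95% exact binomial interval 95.7 to 97.5) of 1568 genes and Ctgf above 95.3% (94.2 to 96.3) of 1716. Ankrd1 stood above 99.0% of 3738 genes. Tead1 moved up, to 94.2% (92.8 to 95.5) of 1246 long genes, above Amotl2 at 88.1% of 5084. These intervals cover the number of genes ranked and not the error of the measurement.

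**Figure D3:**
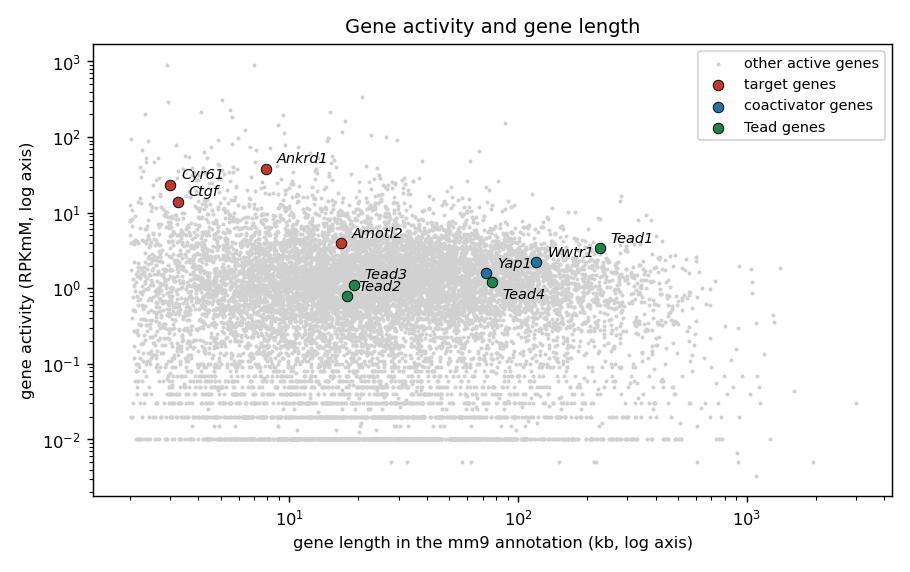
Gene activity (RPKmM, log axis) against gene length in the mm9 annotation (kb, log axis); grey points are the other active genes above 0 and coloured points the 10 members by role. Cyr61 and Ctgf are among the short genes, and Tead1, at 227 kb, lies in the upper part of the genes of similar length, above 94.2% of them.

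Relatives of the target genes differed widely in activity. In the CCN family of secreted matricellular proteins, Cyr61 (23.51 RPKmM) and Ctgf (13.99) were followed by Wisp1 at 5.1, Wisp2 at 0.31 and Nov at 0.02, and Wisp3 was listed as inactive. Ctgf thus exceeded Wisp1, the next gene, 2.74-fold. Among the muscle ankyrin repeat genes, whose products bind titin in the sarcomere, Ankrd1 was 44.3-fold above Ankrd23 (0.89 and 0.84 in its entries) and 274-fold above Ankrd2 (0.14). The angiomotins, scaffolds of cell junctions that bind YAP, were closer together, with Amotl2 at 3.95, Amotl1 at 2.08 and Amot at 1.13 and 0.74 in its entries. Ankrd1 and Amotl2 were each the most active gene of their family and Cyr61 and Ctgf the most active pair of theirs, but the families were chosen with the levels of the members known.

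**Figure D4:**
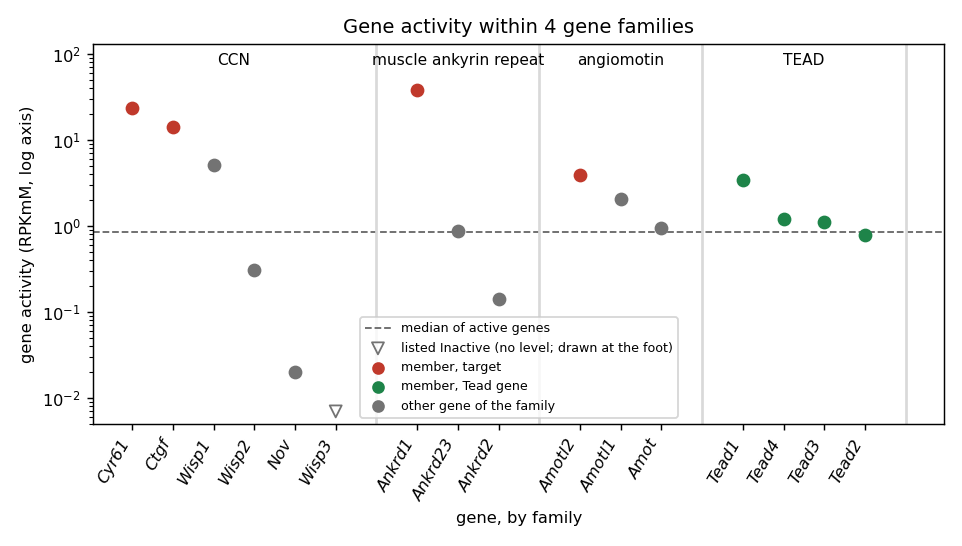
Gene activity (RPKmM, log axis) of the genes of the CCN, muscle ankyrin repeat, angiomotin and TEAD families, 1 point per gene; members are red (targets) and green (Tead genes), relatives grey, and the open triangle marks Wisp3, listed as inactive and without a level. The span is widest in the CCN family and narrowest in the TEAD and angiomotin families.

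The genes listed upstream of YAP and TAZ were all active. Of these 22 genes of Hippo kinases and adaptors, 17 lay above the median of active genes and 15 had 1 RPKmM or above, where 68.7% of all symbols were active and 31.4% reached 1 RPKmM. Their median was 1.57. The kinase genes Stk3 (1.52), Stk4 (0.87), Lats1 (1.74) and Lats2 (1.26 and 1.89 in its entries) lay between Stk4, near the median of active genes, and the higher entry of Lats2, above Yap1. Their partners Sav1, the scaffold of the MST kinases, and Nf2, which encodes merlin, had 2.33 and a mean of 1.94. Map4k4, a kinase that acts beside MST on LATS, was the highest at 6.53. Low levels were listed for Wwc1 at 0.03 and for the atypical cadherin genes Fat4 at 0.1 and Dchs1 at 0.01. Among the Vgll genes, whose products compete with YAP and TAZ for TEAD, Vgll4 had 1.39, Vgll3 0.78 and Vgll2 0.49, and Vgll1 was inactive.

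Further genes counted as YAP and TEAD targets were mostly less active than the 4 members. All 16 were active, but their median of 0.91 RPKmM was close to that of all active genes (0.86), and 8 lay at 1 or above, beside 68.7% active and 31.4% at 1 or above over all symbols. The highest were Axl, a receptor tyrosine kinase gene, at 7.72, Myof, encoding myoferlin, at 5.3 and Gadd45b at 4.35, and none of the 16 reached Ctgf. The lowest were Igfbp3 and Fjx1 at 0.02 and Nt5e at 0.09. Of all 42 pathway genes outside the members, 41 were active, 5 had at least the activity of Amotl2 and none that of Ctgf. Over the 13822 active genes, 1419 lay above Amotl2 and 251 above Ctgf, so that counts this small are near the background. As the members were picked as the best known readouts, the difference between the lists has no test.

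**Figure D5:**
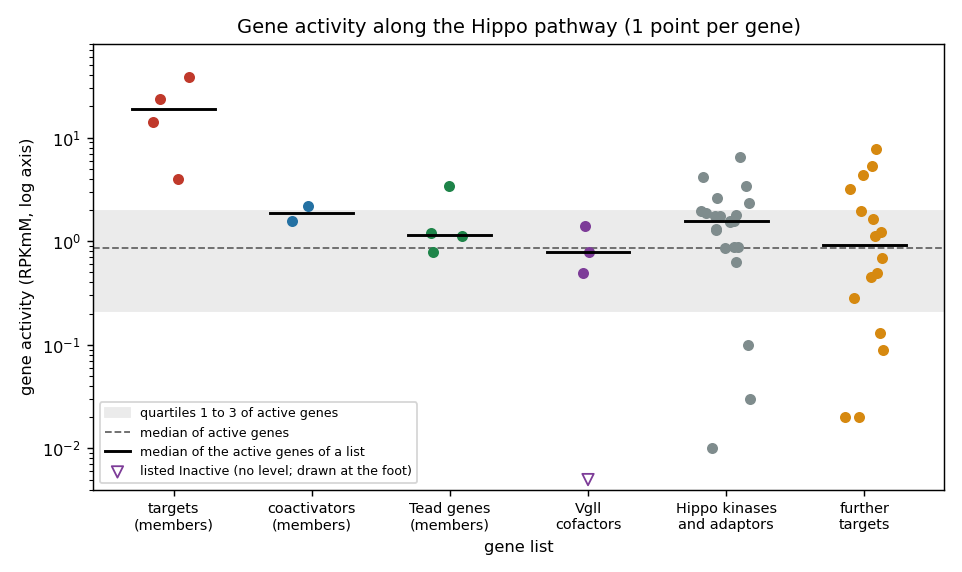
Gene activity (RPKmM, log axis) by gene list, with 1 point per gene, a black bar for the median of the active genes of each list, and the grey band and dashed line for the quartiles and median of all active genes; an open triangle marks Vgll1, listed as inactive and without a level. The member targets have a median of 18.8, the further targets of 0.91 and the Hippo kinases and adaptors of 1.57.

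Genes of nearly equal activity were named by closeness on the log2 scale. For Ankrd1 these were Ddx3x (38.34 RPKmM) and Eef2 (38.26), for Cyr61 Arf4 (23.53) and Sparc (23.55), and for Ctgf Itgb1 (13.99) and Ppp1r18 (14.0). Amotl2 was matched by Atp6v1e1 and Ccnb2 (3.95 each), Wwtr1 by Anxa4 and Aoc2 (2.2 each), and Yap1 by AW209491 and Adgrl1 (1.57 each). Levels are rounded to 2 decimals, and where genes tied the first in alphabetical order are named, so that other genes may be as near. The likeness is of a single level in 1 pooled sample. The label of the cells was checked on marker genes. All 6 myoblast markers were active, as were 68.7% of all symbols. Their levels ran from 2.39 RPKmM for Myod1 to 72.45 for Des, where 16.9% of all symbols reached 2 RPKmM. Among 12 markers of blood, endothelium, epithelium and neurons, 6 were inactive and the other 6 lay from 0.01 to 0.025. Of the 4 genes of differentiated muscle, Mylpf had 5.18, Myh1 1.56, Ckm 0.2 and Myh4 0.14. Ankrd1 is known to be expressed in muscle, and whether fused cells contributed to its level was not tested.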

How the data were processed

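GRO-seq reads of 2 replicate libraries of C2C12 myoblasts were mapped by the authors to mouse genome assembly mm9 with Bowtie2 after base calling with CASAVA 1.8 (submitters' processing notes). Reads at rRNA and tRNA repeats were discarded and both libraries were pooled. The authors deposited gene activity in RPKmM, an RPKM over mappable bases of the gene body on the sense strand, rounded to 2 decimals, and the word Inactive for 7208 entries that did not pass their threshold of false discovery rate against the background of gene deserts (Poisson statistics). Since these cells are words, the range check of the unit could not read the column, and the unit rests on the header and methods. The table holds no read counts, mappable lengths or library totals, so no counting interval was computed, and the short gene bodies of Ctgf and Cyr61 rest on fewer positions than the others. Pooling hides the variation between libraries.

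Each symbol was given the mean of its active entries, and its rank is the percentage of the 13822 active genes below it. Lengths and positions were taken from GENCODE vM1 (mm9) by gene name, for 12302 active genes with 1 model of at least 2 kb. Promoters came from RefSeq (GRCm38.p6), and no coordinates were moved between builds. The members and lists were chosen with earlier results of these data known. The genes named are all members, the 2 nearest in level to each target and coactivator, the family genes and Vgll genes, the extremes of each list and the markers; several Hippo genes and targets between these extremes (Stk3, Stk4, Lats1, Lats2, Sav1, Nf2, Fat4, Wwc1, Myof, Gadd45b, Fjx1, Nt5e), and the TATA and AP-1 motifs, were chosen after their values were seen. A planned comparison of protein sequences was not run, as the protein sequences were not at hand. Summaries were tested on simulated data. Python 3.11.15, numpy 2.4.6, scipy 1.17.1 and matplotlib 3.10.9 were used.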

Additional observations from a re-analysis of the deposited data

How the results depend on the processing

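No paired analysis was possible because the authors pooled both replicates of the single group, and for the same reason no replicate could be left out. Alternative values were taken as moved where they differed by more than 1.5 times, or for ranks where they left the 95% binomial interval of the main rank. Of 103 alternative values, 77 stayed within these limits and no ratio passed 1 in the other direction, but the order of some ranks turned, as given here. With inactive genes kept at 0, the ratio of the member median to the median of all genes rose from 3.26 to 10.4, because the median of all genes falls, and with every RefSeq entry counted by itself it was 2.53. With inactive genes at 0 the ranks of Ankrd1, Cyr61, Ctgf, Amotl2 and Tead1 became 99.6, 99.3, 98.7, 92.9 and 91.2%. Those of Wwtr1, Yap1, Tead4, Tead3 and Tead2 became 84.8, 78.1, 72.3, 71.0 and 63.9%, so that Tead2 lay above the median of all genes. Among genes of similar length the ranks were 99.0, 96.7, 95.3, 88.1 and 94.2% for the former and 80.6, 65.1, 55.4, 55.4 and 44.5% for the latter, so that Tead1 passed Amotl2 and Tead3 equalled Tead4. Among genes with an annotated length, an alternative chosen after seeing the data, Wwtr1 stood at 77.0%, Yap1 at 67.1%, Tead4 at 58.5%, Tead3 at 56.5% and Tead2 at 46.1%. With each level divided by the median of genes of similar length, the ratio of targets to regulators was 17.7 in place of 13.5, and with geometric means in place of medians it was 9.84 (pseudocount 0.01) or 9.80 (pseudocount 0.1). The longer motif ACATTCC was found in 4 member genes in place of 6. Depth could not be judged from the table.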

Other observations

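The motif CATTCC was not more frequent at promoters of active genes in general. Of the genes in the table that matched a RefSeq window, a window with the motif was found for 17.5% of 4863 inactive genes (95% exact binomial interval 16.4 to 18.6) and 15.9% of 5846 active genes under 1 RPKmM (15.0 to 16.9). The share was 13.3% of 4744 genes from 1 to below 10 (12.3 to 14.3), whose interval lies below both of these. For the 318 genes at 10 or above it was 14.8%, with an interval of 11.1 to 19.2 that holds the other 3 shares. Among the pathway genes with a window, 7 of 18 Hippo kinases and adaptors and 2 of 10 further targets had the motif. These windows reach only 250 bases upstream, and motifs farther away were not searched.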
